A study of Mus musculus with 6 samples.

Results

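The genes described here encode aminoacyl-tRNA synthetases and their scaffold proteins in mouse hippocampus. They were chosen by gene symbol: a single letter, or Ep, followed by ars and an optional 1 or 2, together with Farsa, Farsb, Aimp1, Aimp2 and Eef1e1. The rule found 39 genes among the 55414 of the deposited table. Of these, 19 encode cytosolic synthetases, 17 have symbols ending in ars2 and encode mitochondrial synthetases, and 3 encode scaffold proteins. RNA was sequenced from 3 hippocampus samples of mice treated with CerM and 3 of mice treated with vehicle. The labels give no strain, age, dose or duration and do not spell out CerM, and although the titles call the samples biological replicates, nothing says that each came from a separate animal. The p-values therefore set the treatment difference against the spread among these 6 libraries only, and may not hold for animals in general. The series title links gut bacteria and ceramides to depression caused by corticosterone and to mitochondrial function, and the comparison asks how hippocampal transcripts differ with CerM.

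Each synthetase attaches an amino acid to the tRNAs that read its codons, and its symbol begins with the amino acid's 1-letter code. Cytosolic and mitochondrial translation use separate tRNAs, and most amino acids therefore have a pair of nuclear genes, with the mitochondrial enzyme imported after synthesis. Kars and Gars each encode both forms of their enzyme from a single gene. Several cytosolic synthetases sit in a multisynthetase complex held together by AIMP1, AIMP2 and the product of Eef1e1 (AIMP3). Many cytosolic synthetase genes are targets of ATF4, the transcription factor of the integrated stress response, and inherited defects of several mitochondrial synthetases, RARS2 among them, cause brain disease.

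A motif bound by ATF4 was found in promoters of some cytosolic genes and of none of the mitochondrial genes examined. The motif searched was TGATGNAA, the core of the C/EBP-ATF response element to which ATF4 binds with a C/EBP partner, on both strands of the 300 bases from 250 before to 50 after each RefSeq start (GRCm38.p6). The RefSeq table held 29 of the 39 members, and Pars2 was among those with no entry. The motif was present in 5 of the 12 cytosolic genes with an entry (41.7%), Aars, Gars, Iars, Tars and Yars, in 0 of 14 mitochondrial genes and in 0 of 3 scaffold genes. Of all 27025 genes with a promoter entry, 4.51% held it, and of the 11085 that were also tested here 2.67% did. A match is only a match of letters, and no binding was measured. The windows around each match are printed because the motif sets these 5 genes apart from the other members with an entry. Capitals mark the motif, on the gene's strand for Yars and as its reverse complement for the other genes.
Aars, chr8:111033694-111033773, plus strand: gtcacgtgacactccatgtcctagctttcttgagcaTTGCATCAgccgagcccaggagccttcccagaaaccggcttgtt
Aars, chr8:111033815-111033871, plus strand: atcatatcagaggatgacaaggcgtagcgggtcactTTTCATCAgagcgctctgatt
Gars, chr6:55037935-55038014, plus strand: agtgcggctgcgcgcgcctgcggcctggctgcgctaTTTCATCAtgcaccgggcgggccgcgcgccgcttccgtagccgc
Iars, chr13:49682101-49682159, plus strand: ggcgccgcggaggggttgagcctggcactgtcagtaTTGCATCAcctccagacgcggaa
Tars, chr15:11399630-11399709, minus strand: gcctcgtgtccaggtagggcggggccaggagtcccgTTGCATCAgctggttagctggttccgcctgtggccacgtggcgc
Yars, chr4:129189870-129189932, plus strand: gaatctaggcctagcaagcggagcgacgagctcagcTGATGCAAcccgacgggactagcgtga
Of the 6 matches 4 read TTGCATCA or its complement, and all begin between positions −112 and 9 from the annotated start. Aars holds a second match just past its start.

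All values are in TPM, an abundance corrected for transcript length and for the total of the library, which allows levels to be compared between genes. TPM keeps no read depth, so the depth behind each value is unknown. Every one of the 39 members passed the minimum of 1 TPM on average. The libraries differed in markers of other tissues and cell types. All 6 choroid plexus markers were detected, and their summed level was 9311 and 10948 TPM in CerM replicates 1 and 3 and 15715 TPM in vehicle replicate 3, against 254 to 306 TPM in the other 3 libraries. The 6 neocortex markers summed to 234 TPM in vehicle replicate 1 and to 80.6 to 90 TPM elsewhere. The 6 adipocyte markers summed to 667 TPM in CerM replicate 3 and to at most 1.80 TPM elsewhere, with Cfd listed at 0 in the other 5 libraries. Oligodendrocyte markers, 6 of 6 detected, summed to 3754 TPM in vehicle replicate 1 and to 5745 to 6779 TPM elsewhere, and all 6 lay above 0 in CerM over vehicle (median log2 fold change 0.26). Astrocyte markers summed to 857 to 1123 TPM in CerM and 699 to 997 TPM in vehicle, and 5 of 6 lay above 0 (median 0.19). Apart from a fit with a choroid plexus covariate, the part of these cell types in the results below was not tested. Summed neuron markers, 6 of 6 detected, ran from 4928 to 5516 TPM in CerM and from 5083 to 6042 TPM in vehicle, and 4 of 6 lay below 0 (median −0.05). The 6 hippocampal markers were all detected, at a summed 161 TPM in vehicle replicate 1 and 193 to 238 TPM elsewhere. Of these, 5 lay above 0 (median 0.29).

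Cytosolic synthetases were the more abundant class. Their mean levels over the 6 libraries ran from 14.6 TPM for Vars to 216 TPM for Sars, with a median of 55.4 TPM. Mitochondrial synthetases ran from 2.32 TPM for Mars2 to 29.4 TPM for Lars2, with a median of 11.1 TPM. The scaffold genes lay at 88.9 TPM for Aimp1, 42 TPM for Aimp2 and 24.5 TPM for Eef1e1. Summed over each class, cytosolic synthetases gave 1143 to 1389 TPM per library and mitochondrial ones 217.8 to 253.4 TPM.

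**Figure D1:**
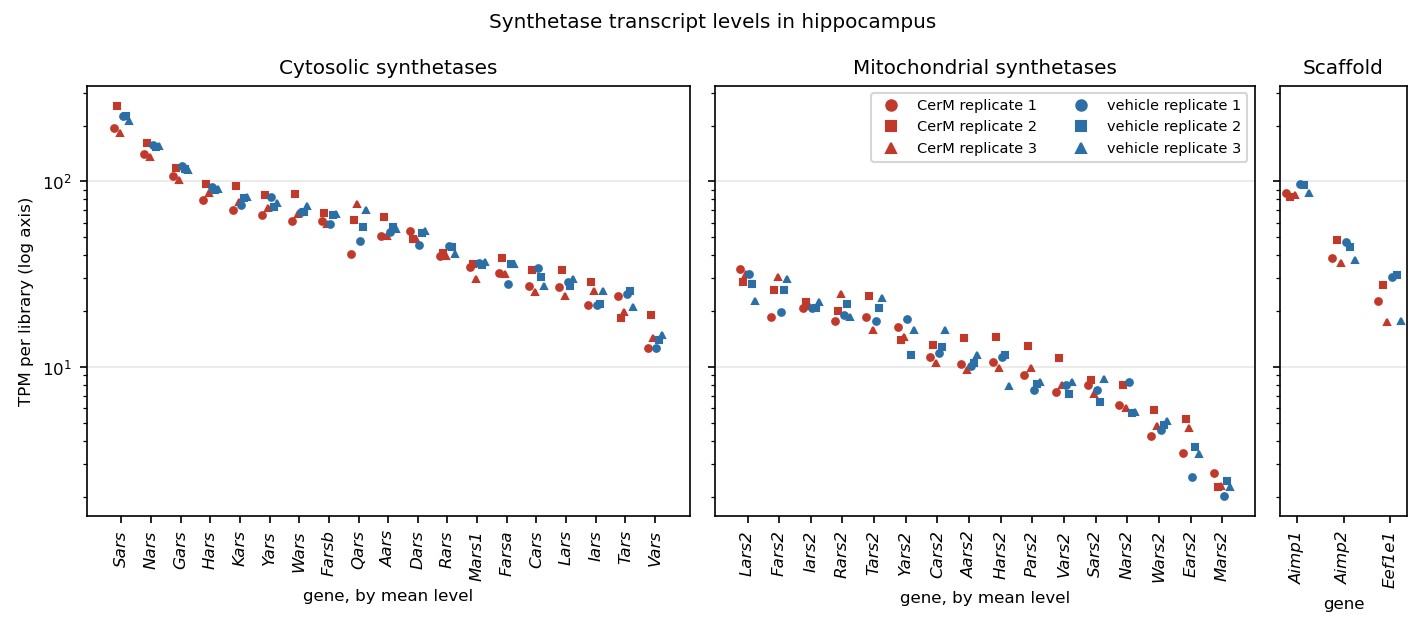
TPM of the synthetase and scaffold genes in each of the 6 libraries, with 1 member not drawn, on a log axis, ordered by mean level within each class; colours mark the treatment and symbols the replicate. Sars stands highest at 183 to 257 TPM and Mars2 lowest at 2.01 to 2.69 TPM, and CerM and vehicle points overlap for every gene drawn except Pars2.

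Among the cytosolic genes Sars, for the enzyme of serine, was the highest in every library. Its values were 193, 257 and 183 TPM in CerM replicates 1 to 3 and 226, 225 and 212 TPM in vehicle replicates 1 to 3. Nars, for asparagine, came next with 140.3, 162 and 136 TPM in CerM and 158, 153 and 155 TPM in vehicle. The ranges of these neighbours did not touch, and Gars, at 102 to 121 TPM, lay below both. From Hars (89.5 TPM) down to Wars (70.6 TPM) the ranges of neighbours overlapped across libraries, although Hars was above Kars, Yars and Wars within each of the 6. The lowest cytosolic genes were Tars, with 24.2, 18.4 and 19.8 TPM in CerM and 24.7, 25.6 and 21.1 TPM in vehicle, and Vars, with 12.6, 19.1 and 14.3 TPM in CerM and 12.6, 14.0 and 14.9 TPM in vehicle.

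Phenylalanine is charged in the cytosol by an enzyme made of a pair of different subunits. Farsb, for the beta subunit, had 61.6, 67.3 and 59.3 TPM in CerM and 59.2, 65.9 and 66.7 TPM in vehicle. Farsa, for the alpha subunit, had 32.0, 38.5 and 31.7 TPM in CerM and 28.07, 35.95 and 35.87 TPM in vehicle. Farsb was thus above Farsa in all 6 libraries, and neither separated the treatments.

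Among the mitochondrial genes Lars2, for leucine, had 33.7, 28.9 and 31.7 TPM in CerM and 31.7, 27.8 and 22.6 TPM in vehicle. Fars2, the mitochondrial enzyme of phenylalanine, had 18.6, 26.1 and 30.5 TPM in CerM and 19.8, 26.1 and 29.6 TPM in vehicle. The lowest and highest Fars2 values were both in CerM, and the group means were 25.1 TPM in CerM and 25.2 TPM in vehicle. Within both treatments Fars2 rose with the replicate number. Iars2, Rars2 and Tars2 had means between 20.1 and 21.5 TPM and overlapping ranges. At the low end stood Ears2, for glutamate, and Mars2, for methionine. Mars2 had 2.69, 2.25 and 2.27 TPM in CerM and 2.01, 2.44 and 2.25 TPM in vehicle.

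Within pairs for the same amino acid, the cytosolic gene was higher than its mitochondrial partner in all 6 libraries for 12 of 14 pairs. The ratio varied widely between amino acids. Sars over Sars2 had the highest median ratio, 27.8, followed by Nars over Nars2 at 22.6, Mars1 over Mars2 at 15.3 and Wars over Wars2 at 14.4. At the other end, Iars over Iars2 had a median of 1.10, and the exceptions were Tars over Tars2, above 1 in 4 of 6 libraries, and Lars over Lars2, above 1 in 2 of 6. The ratio of tryptophan enzymes was the steadiest across libraries, from 13.8 to 14.8. Farsb over Fars2 ran from 1.94 to 3.32 and Farsa over Fars2 from 1.04 to 1.72.

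**Figure D2:**
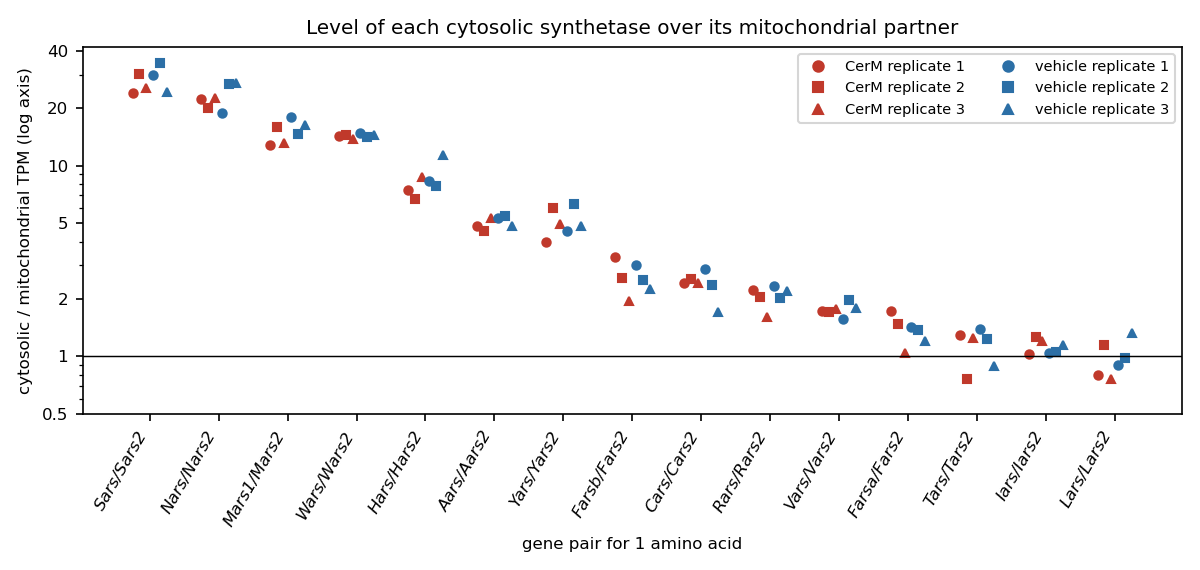
Ratio of cytosolic to mitochondrial TPM for amino acids with a gene of both kinds, 1 pair not drawn, on a log axis, 1 point per library; the line marks equal levels. Ratios run from medians of 27.8 for serine to 0.944 for leucine, and CerM and vehicle points overlap in every pair drawn.

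No pair separated CerM from vehicle. The ranges overlapped in all 14 pairs, and the mean ratio was lower in CerM in 11 of them. The 2 pairs given next are among those 11 and were not named by a rule set beforehand. Hars over Hars2 was 7.42, 6.67 and 8.71 in CerM and 8.27, 7.83 and 11.4 in vehicle. Mars1 over Mars2 was 12.9, 16.0 and 13.1 in CerM and 18.1, 14.6 and 16.3 in vehicle. For both pairs the difference of the means was within the range of the libraries.

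None of the synthetase or scaffold genes differed by treatment at the adjusted threshold. Of the 39 members, limma called 0 at an adjusted p below 0.05, as it called 0 of all 14916 tested genes (0%). At an unadjusted p below 0.05 there were 0 members, beside 2.7% of all tested genes. The groups did not overlap in 1 member, Pars2, that is in 2.56% of members beside 7.3% of all tested genes. Pars2 was higher in CerM, and 3.26% of all tested genes had groups apart in that direction. In bulk tissue, fewer cells of a type and less RNA per cell cannot be told apart. The 95% confidence interval of the fold change lay within 1.5-fold of TPM + 1 for 35 members and within 2-fold for all 39. The 4 members with a wider interval than 1.5-fold were Pars2, Ears2, Hars2 and Eef1e1. For low genes such as Mars2 this bounds TPM itself less tightly.

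**Figure D3:**
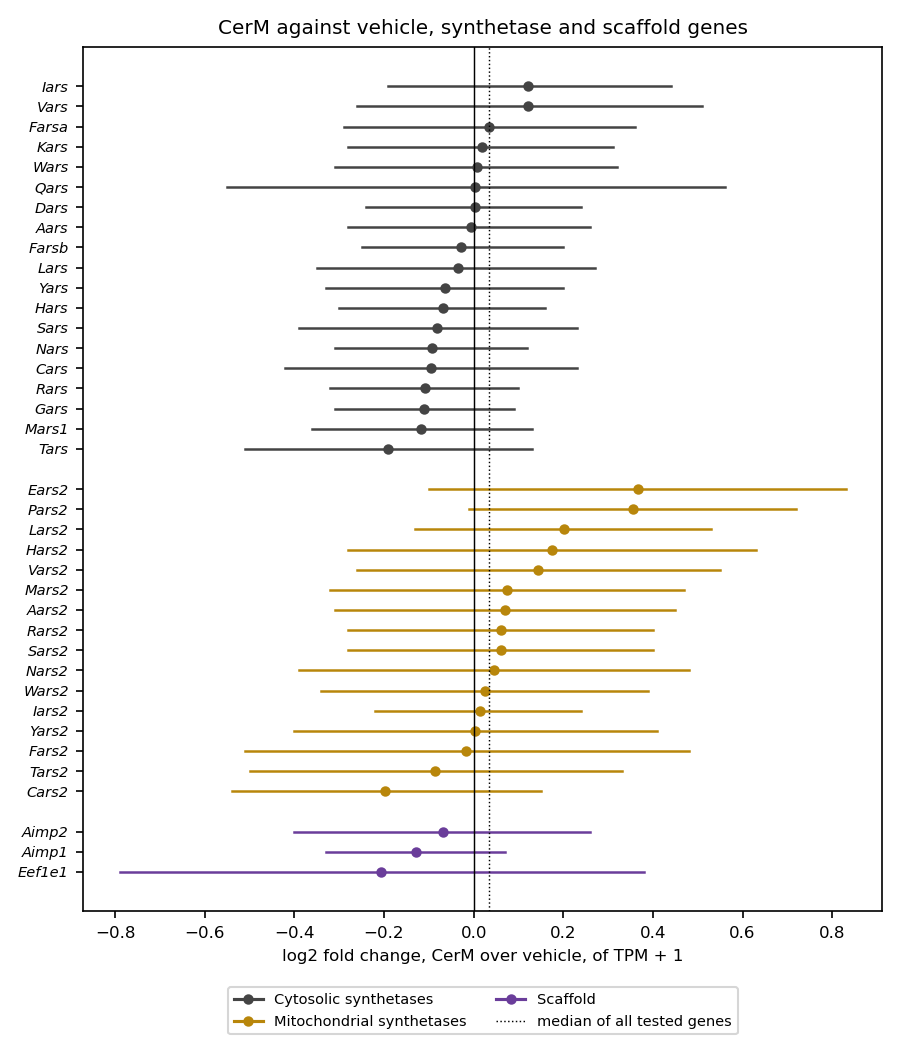
log2 fold change of TPM + 1, CerM over vehicle, for the members, 1 of them not drawn, each with its 95% confidence interval from limma over 3 libraries per treatment; the dotted line is the median of all tested genes, 0.03. Every interval includes 0, and the fold changes run from −0.21 for Eef1e1 to 0.37 for Ears2.

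Pars2, which charges mitochondrial proline tRNA, had the smallest p of all members. It had 9.02, 13.0 and 9.85 TPM in CerM and 7.55, 8.14 and 8.33 TPM in vehicle. All 3 CerM libraries lay above all 3 vehicle libraries, and the gap between 8.33 and 9.02 TPM was smaller than the spread within CerM. The log2 fold change was 0.36 ± 0.16 (SE; limma adjusted p = 0.989). Without CerM replicate 2, its highest library, it was 0.212.

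Ears2, which charges mitochondrial glutamate tRNA, had 3.43, 5.24 and 4.71 TPM in CerM and 2.54, 3.72 and 3.40 TPM in vehicle. CerM replicate 1 lay within the vehicle range, and the log2 fold change was 0.37 ± 0.20 (SE; limma adjusted p = 0.989). In the cytosol glutamate and proline are charged by a single fused enzyme, the product of Eprs, whose symbol the rule does not take in. Eprs had 28.6, 33.3 and 29.1 TPM in CerM and 25.7, 27.8 and 29.9 TPM in vehicle, and its log2 fold change was 0.12 ± 0.11 (SE; limma adjusted p = 0.989). It is set beside Pars2 and Ears2 here because both belong to amino acids that have no other cytosolic synthetase.

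The other mitochondrial genes with the smallest p were Lars2, Cars2 and Hars2. The values of Lars2 overlapped between 28.9 and 31.7 TPM, and its log2 fold change was 0.20 ± 0.14 (SE; limma adjusted p = 0.989). Cars2, for cysteine, had 11.3, 13.1 and 10.5 TPM in CerM and 11.9, 12.8 and 15.9 TPM in vehicle, with a log2 fold change of −0.20 ± 0.15 (SE; limma adjusted p = 0.989). Hars2, for histidine, had 10.7, 14.6 and 9.92 TPM in CerM and 11.3, 11.5 and 7.92 TPM in vehicle, with a log2 fold change of 0.17 ± 0.20 (SE; limma adjusted p = 0.989). Lars2 was highest in CerM replicate 1 and lowest in vehicle replicate 3, whereas Cars2 was highest in vehicle replicate 3. Without vehicle replicate 3 the log2 fold changes were 0.075 for Lars2, −0.087 for Cars2 and 0.014 for Hars2. Without CerM replicate 2 that of Hars2 was 0.019. The other 12 mitochondrial genes had log2 fold changes between −0.09 for Tars2 and 0.14 for Vars2. Among them, Iars2 (0.01 ± 0.10) had the smallest standard error.

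Among cytosolic synthetases outside the complex, Tars had the smallest p, with a log2 fold change of −0.19 ± 0.14 (SE; limma adjusted p = 0.989). Gars, for glycine, had 107, 118 and 102 TPM in CerM and 121, 116 and 116 TPM in vehicle, with a log2 fold change of −0.11 ± 0.09. For Nars the log2 fold change was −0.09 ± 0.09. Gars and Nars stood apart between treatments except for CerM replicate 2, which lay inside the vehicle range for Gars and above it for Nars. Of these 12 genes 9 lay below 0, and Vars was at 0.12 ± 0.16 (SE).

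Of the cytosolic members 7 belong to the multisynthetase complex. Rars, for arginine, had 39.7, 40.9 and 39.6 TPM in CerM and 44.7, 44.3 and 40.8 TPM in vehicle, with a log2 fold change of −0.11 ± 0.09 (SE; limma adjusted p = 0.989). Mars1, for methionine, had 34.6, 35.9 and 29.7 TPM in CerM and 36.4, 35.6 and 36.7 TPM in vehicle, at −0.12 ± 0.10. In Rars the highest CerM library, 40.93 TPM, lay just above the lowest vehicle library, 40.81 TPM. Kars, which supplies lysine tRNA in both compartments, had 70.0, 94.9 and 77.8 TPM in CerM and 74.3, 81.4 and 82.4 TPM in vehicle, at 0.02 ± 0.13. Iars was at 0.12 ± 0.14, Dars at 0.00 ± 0.10 and Lars at −0.04 ± 0.13. Qars, singled out after its values were seen, had the widest spread of the cytosolic class, with 40.7, 61.8 and 75.7 TPM in CerM and 47.8, 56.5 and 70.3 TPM in vehicle. Its group means differed by 2.07% while its coefficient of variation over the 6 libraries was 22.5%, and the log2 fold change was 0.00 ± 0.24. Like Fars2, Qars rose with the replicate number in both treatments.

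The 3 scaffold genes lay below 0 in fold change, without passing the test. Aimp1, whose protein also acts as a secreted cytokine, had 87.1, 82.7 and 84.9 TPM in CerM and 96.4, 96.2 and 86.3 TPM in vehicle. CerM replicate 1 lay above vehicle replicate 3, so the groups overlapped, and the log2 fold change was −0.13 ± 0.09 (SE; limma adjusted p = 0.989). Aimp2 had 38.5, 48.4 and 36.2 TPM in CerM and 47.0, 44.2 and 37.6 TPM in vehicle, at −0.07 ± 0.14. Eef1e1 had 22.7, 27.5 and 17.4 TPM in CerM and 30.7, 31.3 and 17.7 TPM in vehicle, at −0.21 ± 0.25. Eef1e1 was high in CerM replicate 2 and vehicle replicates 1 and 2, the libraries with the lowest choroid plexus markers, and lowest in CerM replicate 3 and vehicle replicate 3. With the choroid plexus score as a covariate, chosen after seeing the data, its log2 fold change was 0.002, that of Aimp2 was 0.036 and that of Aimp1 was −0.107.

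As classes, cytosolic and mitochondrial synthetases lay on either side of the median of all tested genes, which was 0.03 on the log2 scale. The cytosolic median was −0.04, with 12 of 19 genes below 0 (63.2%). The mitochondrial median was 0.06, with 3 of 17 below 0 (17.6%). Of all tested genes 41.2% lay below 0. Among all genes at the levels of the cytosolic class 46.9% did, and among those at the levels of the mitochondrial class 34.5%. The splits of the synthetase classes moved with the scaling. With quantile scaling, where the median of all genes was 0, 13 cytosolic and 10 mitochondrial genes lay below 0, and with median-ratio scaling 16 and 6 did. Inside the multisynthetase complex the median was 0.00 over 7 synthetases, and outside it −0.07 over 12. Split by catalytic fold, the median was 0.01 over 18 class I and 0.00 over 18 class II synthetases.

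The contrast between the classes was also computed library by library. A class score averages, over the genes of a class, how far log2(TPM + 1) in a library lies from that gene's 6-library average. Only differences between libraries can therefore be read from it. The mitochondrial score minus the cytosolic score was 0.051, 0.040 and 0.078 in CerM replicates 1 to 3 and −0.045, −0.076 and −0.048 in vehicle replicates 1 to 3. The CerM libraries lay above the vehicle libraries, by 0.113 on the mean. No test of this score is given, because the genes were chosen with results of these data known. Broad sets of all genes at these levels, the members among them, differed with the same sign. Among all genes at the levels of the mitochondrial class (8292 genes from 2.32 to 29.4 TPM) the median log2 fold change was 0.06, and among those at the levels of the cytosolic class (6729 genes from 14.6 to 216 TPM) it was 0.01. The same difference taken between these broad sets was 0.019, 0.010 and 0.054 in CerM and −0.042, −0.046 and 0.006 in vehicle, or 0.055 on the mean. The sets share the genes between 14.6 and 29.4 TPM. With quantile scaling, which gives every library the same distribution, the synthetase contrast shrank to 0.053 and that of the broad sets to 0.001. For the synthetases the CerM libraries (0.020 to 0.034) still lay above the vehicle libraries (−0.057 to 0.006). With this scaling the mitochondrial median turned to −0.015. Without Pars2 and Ears2 and with TPM as deposited the contrast was 0.075.

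**Figure D4:**
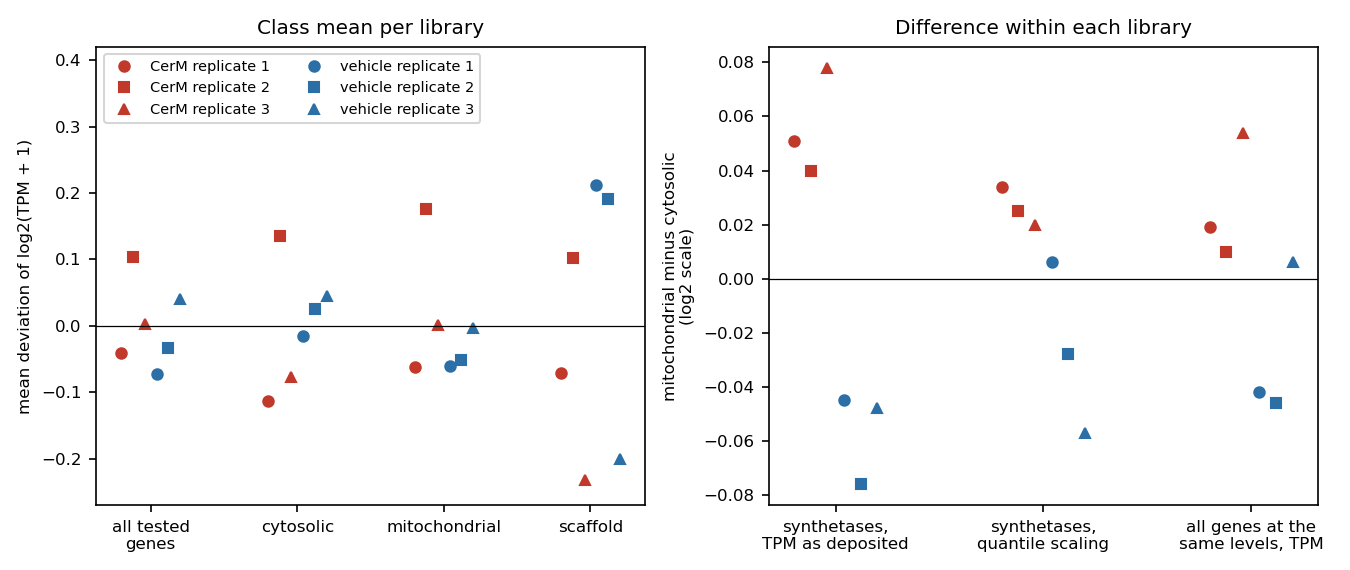
Left, mean deviation of log2(TPM + 1) per class and library; right, the mitochondrial minus the cytosolic value within each library, as deposited and with quantile scaling, and the same between all genes at the levels of each class. CerM replicate 2 stands highest for all tested genes (0.103) and for both synthetase classes, and the within-library difference is 0.113 higher in CerM as deposited and 0.053 with quantile scaling.

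The direction of several members turned when CerM replicate 2 or vehicle replicate 1 was left out. Without CerM replicate 2, those below 0 went from 18 to 29 of 39. CerM replicate 2 held the highest value of 12 of 19 cytosolic and 7 of 17 mitochondrial synthetases, while over all tested genes it was the highest library for 41.1%. Its cytosolic score was 0.136, against −0.113 and −0.077 in the other CerM libraries and −0.015, 0.025 and 0.045 in vehicle. Its mitochondrial score was 0.176, against −0.062 to 0.001 in the other 5 libraries. The same library had the lowest summed TPM of genes of mitochondrial DNA, 96869 against 107645 to 151623 in the others. With those genes taken out of the TPM, the class medians were −0.022 for the cytosolic and 0.074 for the mitochondrial genes. Without CerM replicate 2, 17 of 19 cytosolic genes lay below 0, beside 55.7% of all tested genes, and the medians were −0.123 for the cytosolic and −0.012 for the mitochondrial class. Without vehicle replicate 1, 26 of 39 members and 17 of 19 cytosolic genes lay below 0, beside 48.8% of all tested genes. Without CerM replicate 3 the share moved the other way, with 15 of 39 members below 0 beside 37.7% of all tested genes.

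Apart from sample weights, each other setting brought at most 2 of the 39 members past an unadjusted p below 0.05. Pars2 did so with quantile scaling (1 of 39 members, beside 2.99% of all tested genes), with median-ratio scaling (3.45%) and with TPM recomputed without mitochondrial DNA genes (3.03%). Pars2 and Ears2 did so without CerM replicate 1, beside 3.37% of all tested genes. Nars and Sars did so without CerM replicate 2, beside 3.61%, and Eef1e1 without vehicle replicate 3, beside 6.41%. Hars2 did so with the choroid plexus covariate, beside 2.52%. With the replicate number as a block, 0 members did, beside 3.33%. With sample weights, 9 members did (23.1% of members, beside 18.1% of all tested genes). They were Aimp1, Cars2, Eef1e1, Gars, Mars1, Pars2, Rars, Sars and Tars.

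The 5 genes with the ATF4 motif lay on both sides of 0, and none passed the test. Their log2 fold changes were 0.12 for Iars, −0.01 for Aars, −0.07 for Yars, −0.11 for Gars and −0.19 for Tars. Of 29 tested genes on a list of ATF4 targets 16 lay above 0 and 13 below (44.8%), beside 41.2% of all tested genes below 0. Their median was 0.01, beside 0.03 for all tested genes. An unadjusted p below 0.05 was found for 0 of the 29, beside 2.7% of all tested genes. The groups did not overlap in 2 of the 29, beside 7.3%. Atf4 itself had 113, 108 and 113 TPM in CerM and 134, 119 and 113 TPM in vehicle, at −0.13 ± 0.09 (SE; limma adjusted p = 0.989). The smallest p of the list belonged to Slc38a2, a neutral amino acid transporter, at 43.0 to 44.3 TPM in CerM and 37.6 to 38.9 TPM in vehicle (0.18 ± 0.08, limma adjusted p = 0.989). It was followed by Vldlr, a lipoprotein receptor, at 0.24 ± 0.13. Asns, for asparagine synthetase, was at −0.02 ± 0.10.

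Of the genes that work beside the synthetases, 1 of 14 partners (Dtd1), 1 of 20 tRNA maturation genes (Trmt61b), 1 of 15 mitochondrial translation genes (Mtres1) and 0 of 9 elongation factor genes had an unadjusted p below 0.05, beside 2.7% of all tested genes. The adjusted threshold of limma was passed by 0 of them. The partners include tRNA editing enzymes and the mitochondrial glutamine pathway. Below 0 lay 7 of the 14 (50%, median −0.01), beside 41.2% of all tested genes. Dtd1, which removes D-amino acids from tRNA, had 83.5, 87.3 and 88.4 TPM in CerM and 100.3, 104 and 98.4 TPM in vehicle, at −0.22 ± 0.08 (SE; limma adjusted p = 0.989). Aarsd1, an editing protein related to the alanine enzyme, was at −0.19 ± 0.10. The groups did not overlap in 3 of the 14 partners, Dtd1, Aarsd1 and Dtd2, beside 7.3% of all tested genes. Dtd2, named here after its values were seen, lay the other way at 0.19 ± 0.12. Tarsl2, a further cytosolic threonine synthetase outside the rule, was at −0.12 ± 0.13. Mitochondrial glutamine tRNA is charged first with glutamate by EARS2 and then converted by the products of Qrsl1, Gatb and Gatc. Their log2 fold changes were −0.10 ± 0.13, 0.14 ± 0.16 and −0.03 ± 0.11, beside 0.37 ± 0.20 for Ears2.

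Of 20 genes of tRNA maturation, chosen for their role in mitochondria, 7 lay below 0 (35%, median 0.04), beside 41.2% of all tested genes. Trmt61b, a tRNA methyltransferase of mitochondria, had 12.4, 12.6 and 12.8 TPM in CerM and 17.1, 15.3 and 14.6 TPM in vehicle, at −0.29 ± 0.11 (SE; limma adjusted p = 0.989). Trmt5, also a tRNA methyltransferase, was at −0.28 ± 0.12. Of 15 genes of mitochondrial translation factors and ribosomal RNA modification 11 lay below 0 (73.3%, median −0.06). Mtres1, a mitochondrial RNA-binding protein, had 45.2, 38.2 and 41.8 TPM in CerM and 57.1, 48.7 and 47.0 TPM in vehicle, at −0.28 ± 0.11 (SE; limma adjusted p = 0.989). Mtif2, a mitochondrial initiation factor, was at −0.27 ± 0.14. Of 9 cytosolic elongation factor genes 5 lay below 0 (55.6%, median −0.07), with Eif5a at −0.14 ± 0.08 and Eef1g at −0.12 ± 0.09.

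Several members share sequence with a neighbour, and how reads were divided is unknown. In GENCODE M21 transcripts, 12 members share an exact stretch of at least 100 bases with a gene on the opposite strand, and nothing in the sources used here states whether strand was used in counting. Hars and Hars2 share 195 bases with each other in this way. Iars2 shares 2034 bases with Rab3gap2, at a mean of 22.2 TPM, Aimp2 shares 488 with Eif2ak1 (47.7 TPM), and Fars2 shares 503 with Nrn1, whose mean of 313 TPM is far above that of Fars2. Nrn1 had 294 to 299 TPM in CerM and 318 to 351 TPM in vehicle, while Fars2 had 18.6 to 30.5 TPM and 19.8 to 29.6 TPM. Cars2 shares 217 bases with Naxd (69.2 TPM), which like Cars2 was highest in vehicle replicate 3 and next in CerM replicate 2. These libraries also had the highest scores over all tested genes (0.041 and 0.103). Whether shared reads shaped any of these values was not tested. Aars shares 1326 bases at full identity with Exosc6 in the same orientation, and Exosc6 was listed at 0 TPM in every library. The levels of Aars, Hars2, Iars2, Aimp2, Fars2 and Cars2 are uncertain to that extent, as may be those of the other members with such a stretch. A further list held 6 tested genes known to collect ribosomal RNA reads. All 6 lay above 0 (median 0.35), led by Rn18s-rs5 at 0.48 ± 0.10 (SE; limma adjusted p = 0.989) and then Cmss1 at 0.42 ± 0.25. Rn18s-rs5 had 2503, 2125 and 2235 TPM in CerM and 1797, 1632 and 1487 TPM in vehicle. It was the only 1 of the 6 with groups that did not overlap, beside 7.3% of all tested genes. It was also the only 1 with an unadjusted limma p below 0.05, beside 2.7%. Among the GENCODE M21 transcripts, those of Lars2 matched no transcript of another gene at 95% identity over 100 bases. That search covered annotated transcripts only, and whether ribosomal RNA reads were counted for Lars2 was not tested. Lars2 was highest in CerM replicate 1 and lowest in vehicle replicate 3, as were Rn18s-rs5, Jarid2 and Cdk8 but not Cmss1, Camk1d and Filip1l.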

How the data were processed

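Per the labels' protocols, TRIzol extracts of hippocampus were cleared of DNA with DNase I before TruSeq library preparation. The authors deposited TPM values for 55414 genes, which total 993379 to 995403 per library. The submitters' processing notes name HISAT2, StringTie, RSEM and GRCm39, with no versions or roles.

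Genes with a mean of at least 1 TPM (14916) were compared two-sided on log2(TPM + 1) by limma 3.58.1 (R 4.3.3), using a variance trend, and adjusted by Benjamini-Hochberg over all of them at 0.05. Fold changes are on the log2(TPM + 1) scale, which understates low genes. The fit was tested on simulated data. Promoters and transcripts come from an older build (GRCm38) and were matched by symbol and identifier, the transcripts with blastn 2.17.0. Tables and plots were made in Python 3.11.15 with pandas 2.3.3 and matplotlib 3.10.9.

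The members and lists were chosen with earlier results of these data known, so lists have counts and medians and no test. Per-library values are given for the 5 members with the smallest p in each synthetase class, the 2 highest and 2 lowest of each, Kars, Gars, Lars2, Farsa, Farsb and the scaffold genes, and context lists name the 2 genes with the smallest p. Alternatives changed the pseudocount (0.5, 0.1), TPM minimum (none, 5), scaling, variance model, weights and replicate block, and left out each library. A choroid plexus covariate and leaving out CerM replicate 3 with vehicle replicate 1 were added after seeing the data. The values of 1 member enter the counts and class summaries and are not reported here.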

Additional observations from a re-analysis of the deposited data

How the results depend on the processing

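Under 18 alternatives, 0 of the 39 members were called at an adjusted p below 0.05. The number of genes called over the whole table, 0 with all libraries, ran from 1 to 8 with a library left out (8 without CerM replicate 3) and was 1 without CerM replicate 3 and vehicle replicate 1. Members at an unadjusted p below 0.05 numbered 1 (Pars2) with quantile scaling, median-ratio scaling or TPM without mitochondrial DNA genes, 1 (Hars2) with the choroid plexus covariate and 9 with sample weights (23.1% of members, beside 18.1% of all tested genes). They ran from 0 to 2 with a library left out, where Nars and Sars appeared without CerM replicate 2, Ears2 and Pars2 without CerM replicate 1, and Eef1e1 without vehicle replicate 3. The cytosolic median ran from −0.123 to 0.011, above 0 without CerM replicate 3. The mitochondrial median ran from −0.015 to 0.121, below 0 with quantile scaling and without CerM replicate 2. The difference of the medians, mitochondrial minus cytosolic, stayed above 0 in all 18, at 0.005 with quantile scaling, 0.156 with sample weights, 0.076 with the choroid plexus covariate, 0.152 without CerM replicate 3 and vehicle replicate 1, and 0.063 to 0.126 with a library left out. Its cause was not tested. Hars2 turned to −0.079 with sample weights. Aimp2 ran from −0.191 to 0.014 with a library left out, above 0 without CerM replicate 3, and turned to 0.036 with the covariate and to 0.081 without both libraries, and Eef1e1 to 0.002 and 0.081 in the latter settings. Pars2 stayed above 0 in all 18 settings, from 0.212 to 0.456. Between the deviations of same-numbered libraries from their group means, Pearson's r over genes was 0.196 and 0.222 for replicates 2 and 3 and 0.008 for replicate 1. It was −0.207 between CerM replicate 2 and vehicle replicate 3, and −0.204 between CerM replicate 3 and vehicle replicate 2. Deviations within a group sum to 0, so these values are not independent. The numbers were not taken as pairs. With the replicate block, 0 genes were called and 0 members had an unadjusted p below 0.05. TPM holds no depth, and 3 libraries per treatment limit the precision.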
